A study of Bos taurus with 8 samples.

Results

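The stem cells of cattle muscle, called satellite cells (SCs), were compared with its fibro-adipogenic progenitors (FAPs) at passage 2 (Timepoint 3) of a culture process for cultured meat. The cells compared were those of the passage 2 library that the deposited cell table labels SCs or FAPs, in donor animals with at least 10 cells of both types. This left 7874 cells, 2894 SCs and 4980 FAPs, of 36129 cells in the series, and they came from 8 of the 9 donors present. Genotype 6 had 7 FAPs and gave no pair. Raw counts of unique molecular identifiers (UMIs, 1 per captured RNA molecule) were summed per donor and type, and the types were compared within each donor.

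SCs are the resident stem cells of skeletal muscle. They lie under the basal lamina of the fibre, carry PAX7, turn on the myogenic regulators MYF5 and MYOD1 when they activate, and turn on MYOG when they commit to fusion. FAPs are interstitial mesenchymal cells that carry PDGFRA, lay down extracellular matrix, can become adipocytes or fibroblasts, and signal to SCs in regenerating muscle. Both adhere and divide under the conditions used here, so a culture of 1 type can be outgrown by the other.

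All donors were Belgian Blue cattle, each genotype was 1 animal, and all cells came from the semitendinosus muscle and grew in the same serum-free growth medium. Genotypes 1, 2 and 9 were kept unsorted on fibronectin. Genotypes 5, 6 and 10 were sorted for SCs, by the surface proteins ITGA7 and ITGA5, 72 h after isolation and then grown on laminin-521, and genotypes 4, 7 and 8 were sorted for FAPs at the same time and grown on collagen I. Genotypes 2, 4, 5, 7 and 10 were calves and 1, 6, 8 and 9 adults. Genotypes 6, 8 and 10 were male and the others female. Cells of all animals were pooled into 1 Chromium 3′ library per timepoint and assigned to animals by their genotypes, so any free RNA in the pool was common to both types and all donors.

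Because sorted dishes hold few cells of the other type, the depth of the pairs was uneven. The pseudobulks of SCs held 18 to 1125 cells and 340296 to 31783784 UMIs, and those of FAPs 12 to 980 cells and 374857 to 30747403 UMIs. The 2 smallest FAP pseudobulks, 12 cells of genotype 10 and 19 cells of genotype 5, came from sorted SC cultures, and only 25.0% and 5.26% of their cells were in phase G1 by the deposited calls, against 49.3% to 92.2% of the FAPs in the other 6 donors. The FAPs of genotype 10 stood apart also in SC genes: ITGA7 reached 41.5 CPM there (counts scaled to library size), and the summed level of the 8 SC markers ranged over FAP pseudobulks from 14.2 to 94.4 CPM (median 17.7), against 293 to 1180 CPM in SCs. A median SC carried 17760 to 30070 UMIs depending on the donor and a median FAP 20120 to 36810. The difference was -7068 ± 7698 UMIs (SD, n = 8 pairs), negative in 7 of 8 donors (exact sign-flip permutation test, 2-sided, p = 0.039, adjusted p = 0.070 over 3 measures). Its part in the results was not tested.

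The labels were first set against their defining genes. ITGA7, a subunit of the laminin receptor of muscle cells, ranged from 70.8 to 270.0 CPM (median 106) in SCs and from 5.10 to 41.5 CPM (median 6.34) in FAPs, and ITGA5, a subunit of the fibronectin receptor, ranged from 14.9 to 54.7 CPM (median 33.7) in SCs and from 126 to 246 CPM (median 196) in FAPs; neither pair of groups overlapped. All 6 tested SC markers were higher in SCs and all 7 tested FAP markers higher in FAPs, while PAX7, at 0 to 6.22 CPM in SCs, and CHODL stayed under the filter on low counts, and TCF21 had no UMI in SCs. Of the defining genes of other cell types, PTPRC (leukocytes) and RGS5 (mural cells) had no UMI in either type. PECAM1 (endothelium) had none in SCs, but CLDN5 of the same list reached 11.3 CPM there. The 5 vascular endothelial markers summed to 1.4 to 12.8 CPM in SCs and 0 to 1.43 CPM in FAPs. Other lists had members present too. ACTG2 of the smooth muscle list reached 242 CPM in FAPs and 49.1 CPM in SCs. S100B of the glial list reached 32.2 and 108 CPM, and MKX of the tenocyte list 48.3 and 53.3 CPM. The part of all these markers in the results was not tested. The labels were given by the authors from the transcripts of the same cells, so neither these markers nor the tests below are independent of them. In summed cells alone, fewer expressing cells and less RNA per cell cannot be told apart. For markers the share of cells with a UMI was counted too. Over the 8 donors it was 56.5% to 84.6% of SCs and 5.26% to 16.7% of FAPs for MYF5. For DES it was 9.42% to 82.9% and 6.98% to 21.05%, and for MYOG 5.56% to 23.9% and 0 to 9.94%.

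Of 10877 genes tested, 1236 (11.4%) were called at a false discovery rate (FDR) below 0.05 and an absolute log2 fold change (log2-FC, SC over FAP) above 1. In all, 597 (5.49%) were higher in SCs and 639 (5.87%) higher in FAPs, and the median log2-FC over all genes was 0.01. For 563 genes (5.18%) the 8 SC values and the 8 FAP values did not overlap at all, 324 (2.98%) with SCs above and 239 (2.20%) with FAPs above. These shares are the background for the lists that follow. Levels are CPM with TMM scaling, each log2-FC is given with its standard error (SE), n is 8 pairs, and FDR is the Benjamini-Hochberg adjusted p of edgeR's quasi-likelihood test over all 10877 genes. The plot of list counts shows muscle-specific lists at its top and matrix, complement and retinoid lists at its bottom. The ribosomal, mitochondrial, S phase and mitosis lists are empty between them.

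**Figure D1:**
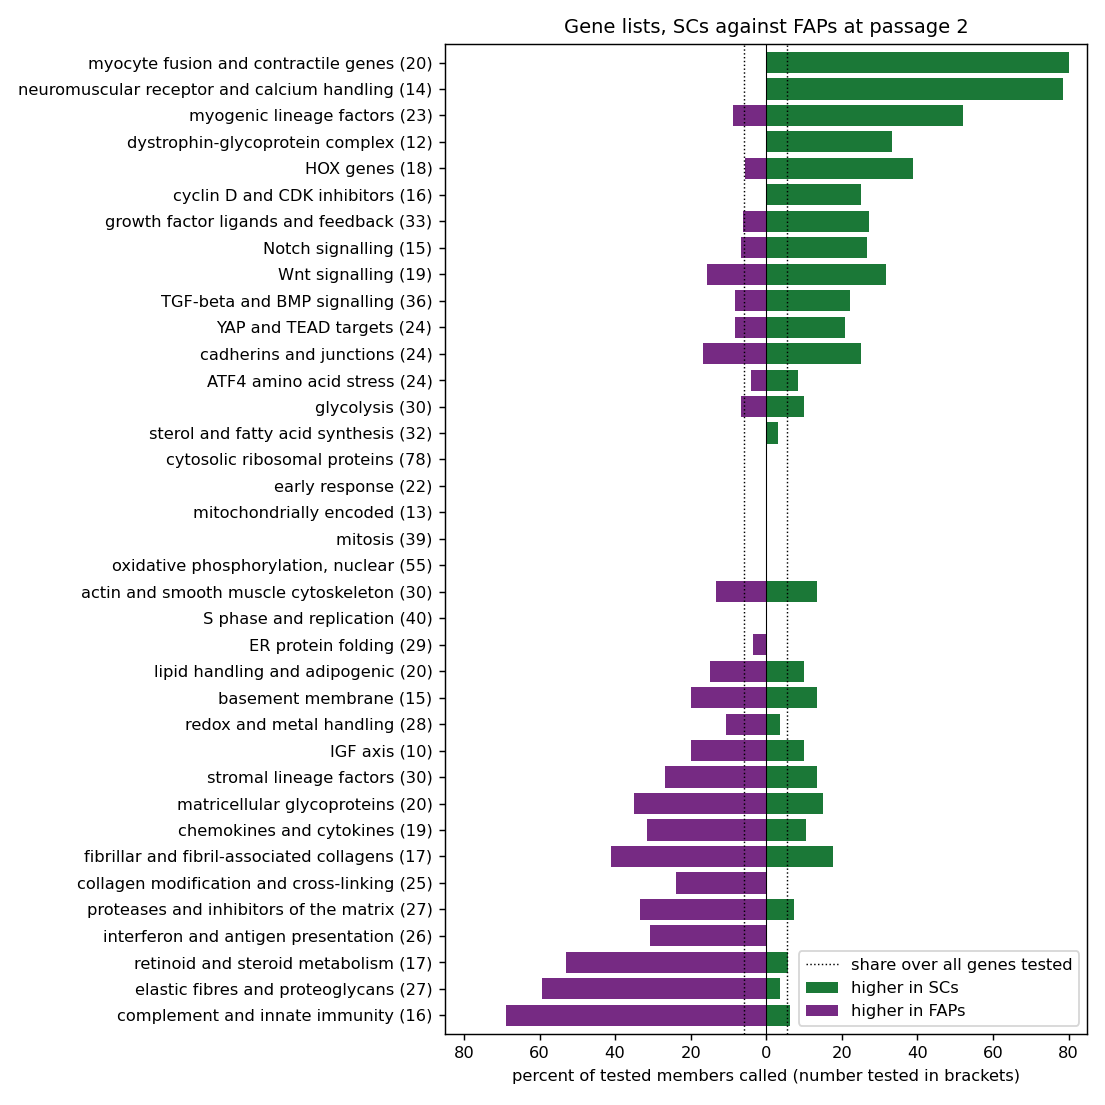
Percent of the tested members of 37 gene lists called higher in SCs (green, right) or in FAPs (purple, left), with the number tested in brackets; dotted lines mark the 5.49% and 5.87% of all genes. Of the contractile list 16 of 20 members were higher in SCs, and of the complement and innate immunity list 11 of 16 were higher in FAPs.

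Regulators of the myogenic lineage lay mostly on the SC side. Of 30 genes on the list 23 were tested, 12 were higher in SCs, 2 higher in FAPs and 9 were not called, with a median log2-FC of 1.33. MYF5, the earliest myogenic regulator to mark SCs, ranged from 94.0 to 162 CPM (median 138) in SCs and from 1.43 to 4.61 CPM (median 2.98) in FAPs, with log2-FC 5.39 ± 0.11, FDR = 1.2e-12. Every SC value lay above every FAP value. MYOD1, which drives activated SCs, ranged from 5.63 to 171 CPM (median 28.6) in SCs and from 1.36 to 27.6 CPM (median 2.13) in FAPs (log2-FC 3.82 ± 0.49, FDR = 4.7e-04). Its SC values were uneven and the 1 overlap came from the FAPs of genotype 10, the pool of 12 cells. PAX3, the paralog of PAX7, ranged from 0.94 to 13.7 CPM (median 6.62) in SCs and from 0 to 2.30 CPM (median 0.13) in FAPs (log2-FC 5.10 ± 0.45, FDR = 1.9e-06). MEGF10, a receptor that keeps SCs dividing, had 513 UMIs in all SCs and 5 in all FAPs (log2-FC 6.42 ± 0.51, FDR = 6.8e-07), and EYA4, a coactivator of homeobox factors of muscle, and CDH15, the muscle cadherin, had log2-FCs of 5.10 and 4.80. The 2 members on the FAP side were VCAM1, an adhesion molecule (log2-FC -3.72 ± 0.37, FDR = 1.8e-05, from 0 to 3.35 CPM (median 0.57) in SCs and from 0 to 118 CPM (median 18.4) in FAPs), and EYA2, a relative of EYA4 (log2-FC -3.18 ± 0.48, FDR = 3.4e-04), which was lower in SCs in 6 of 8 pairs and not in the sorted SC cultures alone, where its log2-FC was 0.74.

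Of 42 genes of fusion and the sarcomere 20 passed the filter, 16 of them were higher in SCs and none was higher in FAPs; the 22 others were too low to test or not in the files. Several passed through their SC levels alone, so the filter itself favours calls on the SC side in the muscle lists. CAV3, the caveolin of the muscle membrane, ranged from 5.82 to 93.8 CPM (median 46.9) in SCs and from 0 to 1.43 CPM (median 0.65) in FAPs (log2-FC 5.94 ± 0.39, FDR = 2.8e-06). NEB, the ruler of the thin filament, ranged from 25.7 to 377 CPM (median 42.9) in SCs and from 0 to 20.7 CPM (median 0.83) in FAPs (log2-FC 5.78 ± 0.53, FDR = 8.8e-05). In both genes all SCs lay above all FAPs, but SC values spread more than 10-fold between donors. TNNI1 and TNNC1, subunits of slow troponin, had log2-FCs of 5.95 ± 0.42 and 5.24 ± 0.65, and XIRP1, an actin-binding repeat protein of striated muscle, 5.70 ± 0.32. The myocyte markers MYOG (log2-FC 4.53 ± 0.59, FDR = 6.7e-04), MYH3, the embryonic myosin heavy chain (log2-FC 5.05 ± 0.75, FDR = 0.0014), and ACTA1, skeletal actin (log2-FC 4.63 ± 0.77, FDR = 0.0028), were higher in SCs too. MYOG ranged from 10.5 to 211 CPM (median 112) in SCs and from 0 to 3.46 CPM (median 2.91) in FAPs, and MYH3 ranged from 1.40 to 203 CPM (median 35.9) in SCs and from 0 to 1.82 CPM (median 1.06) in FAPs.

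In most donors these levels rested on few cells. In the median donor the top 5% of SCs held 92.8% of all MYOG UMIs (69.5% to 100% over 8 donors), 100% of those of MYH3, 92.9% of TNNC1, 77.1% of NEB (32.7% to 95.7%) and 70.8% of DES (32.3% to 99.0%). The lowest shares of NEB and DES were those of genotype 5, a sorted SC culture. The same share was 25.1% (20.0% to 32.1%) for MYF5, 23.7% for ITGA7, 17.8% for RAPSN and 16.5% (14.7% to 18.1%) for ITIH5. The SCs of the 8 pairs held 9102 UMIs of MYOG and 11660 of MYF5, of which genotype 5 alone gave 6990 and 4898. The plot of UMI spread orders 18 genes by this share. In genotype 8, with 18 SCs, the top 5% was 1 cell, and a low count raises the share for any gene.

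**Figure D2:**
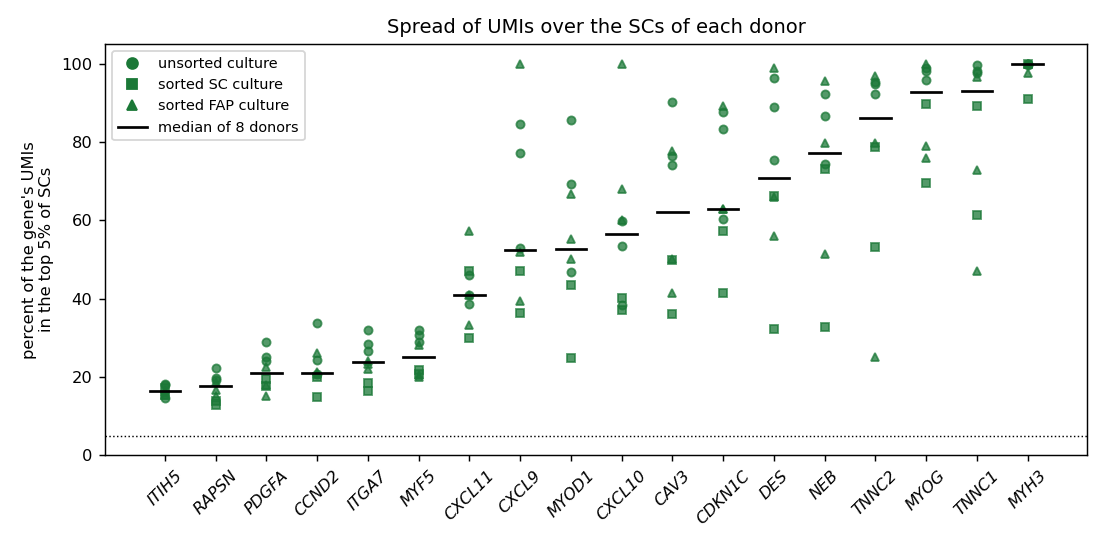
Share of a gene's UMIs held by the top 5% of SCs of each donor (y axis, percent), for 18 genes. Points are the 8 donors, shaped by culture, black bars are medians and the dotted line marks 5%. ITIH5 (16.5%) and RAPSN (17.8%) lie lowest and MYH3 (100%) highest.

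Genes of the neuromuscular junction and of excitation-contraction coupling lay on the SC side. Of 28 genes 14 were tested, 11 were higher in SCs and none higher in FAPs (median log2-FC 3.01). RAPSN, which clusters acetylcholine receptors, ranged from 87.7 to 170.3 CPM (median 107) in SCs and from 1.44 to 39.1 CPM (median 2.57) in FAPs (log2-FC 5.23 ± 0.42, FDR = 2.9e-05), with the highest FAP value in genotype 10. CHRNG, the fetal subunit of that receptor, ranged from 12.6 to 109 CPM (median 30.4) in SCs and from 1.31 to 2.87 CPM (median 1.57) in FAPs (log2-FC 4.5 ± 0.25, FDR = 9.7e-08). JPH1, which joins the membranes of the triad, and KCNN3, a calcium-gated potassium channel, had log2-FCs of 4.56 ± 0.35 and 4.94 ± 0.62. Of the dystrophin-glycoprotein complex, which ties the cytoskeleton to laminin, 4 of 12 tested members were higher in SCs and none in FAPs. SGCA, alpha-sarcoglycan, ranged from 23.9 to 84.1 CPM (median 58.7) in SCs and from 1.08 to 4.61 CPM (median 1.52) in FAPs (log2-FC 5.32 ± 0.25, FDR = 3.9e-08), and the core receptor DAG1 had a log2-FC of 1.75 ± 0.22. In both genes every SC value was above every FAP value.

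Outside the muscle lists, secreted and RNA-binding proteins were among the SC genes with the largest fold. These genes were taken among those with a mean of at least 50 CPM that were higher in SCs in every pair. ITIH5, a heavy chain that binds hyaluronan, ranged from 251 to 526 CPM (median 298) in SCs and from 2.17 to 48.4 CPM (median 6.28) in FAPs (log2-FC 5.77 ± 0.44, FDR = 2.9e-05). SPARCL1, a secreted relative of SPARC, had the largest log2-FC of this group, log2-FC 6.35 ± 0.32, FDR = 1.7e-07, and ranged from 10.4 to 321 CPM (median 42.4) in SCs and from 0 to 2.47 CPM (median 0.75) in FAPs. RBM24, a splicing regulator of muscle, ranged from 28.1 to 179 CPM (median 42.1) in SCs and from 0.64 to 20.7 CPM (median 1.17) in FAPs, and ASB5, a SOCS box protein of muscle, ranged from 66.0 to 180.0 CPM (median 102) in SCs and from 1.53 to 20.7 CPM (median 2.44) in FAPs. The 4 genes did not overlap between the types, which a choice of genes higher in every pair favours. In 3 of them, ITIH5, RBM24 and ASB5, the highest FAP value was that of genotype 10.

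**Figure D3:**
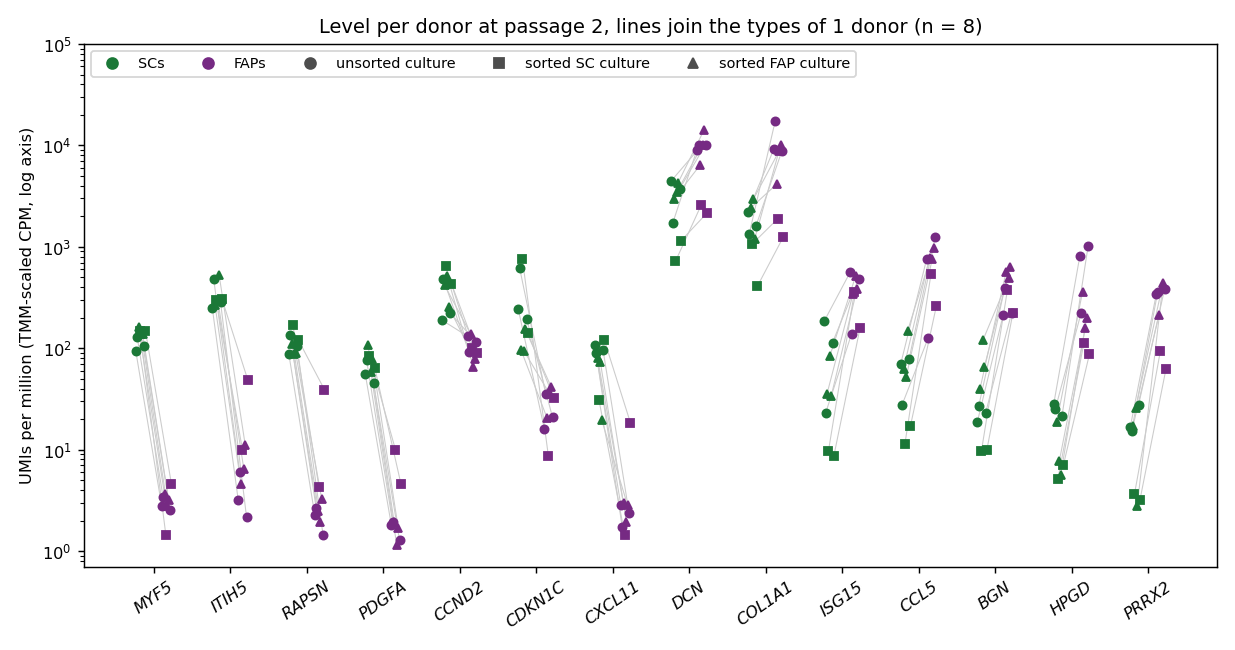
Levels of 14 genes at passage 2 in SCs (green) and FAPs (purple) of each of the 8 donors, on a log axis of CPM, with lines joining the 2 types of a donor and point shapes giving the culture. MYF5 lies at 94.0 to 162 CPM in SCs and 1.43 to 4.61 CPM in FAPs, whereas DCN lies at 718 CPM or more in every SC pseudobulk.

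Ligands and receptors were divided between the types. Of 33 tested growth factor ligands and feedback genes 9 were higher in SCs and 2 higher in FAPs. This balance was not kept between sorted cultures with no use of the labels (4 of 38 higher in SC cultures and 8 in FAP cultures, where 6.99% and 11.2% of all genes were) or in the sorted SC cultures alone (4 and 5 of 35, where 4.28% and 4.03% of all genes were). PDGFA, a ligand of the receptor PDGFRA, ranged from 45.6 to 108 CPM (median 69.5) in SCs and from 1.14 to 10.0 CPM (median 1.88) in FAPs (log2-FC 5.25 ± 0.21, FDR = 5.3e-09), while PDGFRA itself ranged from 15.1 to 89.5 CPM (median 63.0) in SCs and from 87.5 to 779 CPM (median 292) in FAPs (log2-FC -2.41 ± 0.21, FDR = 1.6e-05). The ligand was thus on the SC side and its receptor on the FAP side in all 8 pairs. EFNB2, an ephrin (4.17 ± 0.34), and AREG, an EGF receptor ligand (3.27 ± 0.33), were also higher in SCs. PDGFD, a ligand of the other PDGF receptor (-3.74 ± 0.63), and VEGFA (-1.02 ± 0.22) were higher in FAPs, although VEGFA fell on the SC side in the sorted SC cultures alone (0.31) and in 3 of 8 pairs. VEGFA was not called without genotype 1 (-0.94), 2 (-0.98) or 9 (-0.84).

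Of the TGF-beta and BMP list 8 of 36 tested members were higher in SCs and 3 in FAPs, against 6 and 11 of 40 between sorted cultures with no use of the labels (6.99% and 11.2% of all genes). GREM1, a secreted BMP antagonist, ranged from 5.12 to 39.4 CPM (median 15.3) in SCs and from 0 to 2.53 CPM (median 0.62) in FAPs (log2-FC 4.39 ± 0.37, FDR = 4.1e-06). BMP7, a BMP ligand, had 276 UMIs in SCs and 13 in FAPs (log2-FC 4.28 ± 0.48, FDR = 1.6e-05), and ACVR2B, an activin and myostatin receptor, ranged from 4.21 to 16.9 CPM (median 8.03) in SCs and from 0.41 to 2.30 CPM (median 1.23) in FAPs (log2-FC 2.92 ± 0.22, FDR = 3.7e-07). None of the 3 overlapped. On the FAP side stood FSTL1, a follistatin-like glycoprotein (log2-FC -1.3 ± 0.10, FDR = 5.8e-07), BAMBI, a decoy receptor (-2.53 ± 0.36), and ID4, an inhibitor of bHLH factors (-1.05 ± 0.15). Without genotype 1 (-0.95) the call of ID4 was lost.

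Of 19 tested Wnt members 6 were higher in SCs and 3 in FAPs, and the side with more calls depended on the cells used: 4 and 6 of 25 in the unsorted cultures alone (6.52% and 6.96% of all genes), 6 and 6 of 22 in donors with at least 30 cells of both types (5.39% and 6.37%), and 5 and 8 of 26 between sorted cultures (6.99% and 11.2%). The ligands WNT9A (log2-FC 3.54 ± 0.38, FDR = 1.1e-05) and WNT5B (log2-FC 3.2 ± 0.31, FDR = 1.2e-05) and the co-receptor LRP5 (1.5 ± 0.16) were higher in SCs in every pair. RSPO3, which amplifies Wnt signals (log2-FC -3.18 ± 0.48, FDR = 4.3e-04), the secreted DKK3 (-1.37 ± 0.29) and the receptor ROR2 (-1.16 ± 0.23) were higher in FAPs, RSPO3 in 7 of 8 pairs and the others in all 8. The related DKK2 went the other way, from 0.94 to 101 CPM (median 10.6) in SCs and from 0.53 to 29.9 CPM (median 1.42) in FAPs (log2-FC 2.20 ± 0.42, FDR = 0.0031), with overlapping groups. Of 15 Notch genes 4 were higher in SCs, among them the receptor NOTCH2 (log2-FC 1.16 ± 0.12, FDR = 6.4e-06), the glycosyltransferase LFNG (1.53 ± 0.18) and the target HEYL (3.12 ± 0.41), while the target HEY1 was higher in FAPs (-1.58 ± 0.44) and turned in the sorted SC cultures alone (1.04). Of 10 IGF genes 1 was higher in SCs and 2 in FAPs, IGFBP7 with log2-FC -2.93 ± 0.32, FDR = 1.0e-04 and IGFBP4 with log2-FC -1.36 ± 0.17, FDR = 6.5e-05. The call of ROR2 was lost without genotype 1 (-1.0).

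The extracellular matrix was not a single block. Of 17 fibrillar and fibril-associated collagens 7 were higher in FAPs, 3 higher in SCs and 7 not called (median log2-FC -0.85). COL6A3, a chain of collagen VI, ranged from 0 to 2.81 CPM (median 0.94) in SCs and from 20.7 to 43.4 CPM (median 31.9) in FAPs (log2-FC -5.41 ± 0.26, FDR = 8.1e-09). In contrast COL6A1 and COL6A2, which code for the other chains of the same trimer, had log2-FCs of -0.64 ± 0.18 and -0.53 ± 0.15 and were not called, with 68.2 to 262 CPM and 60.4 to 201 CPM in SCs. COL16A1 (-3.97 ± 0.24) also had no overlap. The abundant COL1A1 (log2-FC -2.01 ± 0.37, FDR = 0.0045) and COL3A1 (log2-FC -1.42 ± 0.37, FDR = 0.022) were called as well, and COL1A1 ranged from 409 to 2935 CPM (median 1473) in SCs and from 1257 to 17310 CPM (median 8879) in FAPs. How much of the SC counts of such abundant FAP genes was free RNA of the pool was not tested. COL3A1 was not called without genotype 1 (-1.47), 7 (-1.34) or 9 (-1.40).

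The 3 collagens on the SC side were COL15A1, a collagen next to basement membranes (from 23.0 to 135 CPM (median 75.2) in SCs and from 1.43 to 11.2 CPM (median 5.17) in FAPs, log2-FC 3.68 ± 0.25, FDR = 2.0e-06), COL11A1, a minor fibrillar chain (from 190.4 to 391 CPM (median 289) in SCs and from 11.5 to 182 CPM (median 62.4) in FAPs, log2-FC 2.33 ± 0.43, FDR = 0.0047), and COL27A1 (1.15 ± 0.23), which turned in the sorted SC cultures alone (-0.57). The first 2 did not overlap between the types. Basement membrane genes were split as well. LAMA5, the chain of the laminin used as the SC coating, ranged from 8.37 to 14.1 CPM (median 10.2) in SCs and from 0.34 to 4.61 CPM (median 0.91) in FAPs (log2-FC 3.85 ± 0.28, FDR = 2.9e-07), and LAMB3 was higher in SCs too (2.57 ± 0.35), whereas NID1, nidogen (-1.06 ± 0.22), COL18A1 (-2.50 ± 0.47) and LAMA3 (-1.90 ± 0.38) were higher in FAPs. The other 10 of the 15 tested were not called. Without genotype 2 (-0.94) or 7 (-0.95) the call of NID1 was lost.

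Of 27 elastic fibre and proteoglycan genes 16 were higher in FAPs and 1 in SCs (median log2-FC -1.39). BGN, biglycan, ranged from 9.69 to 119 CPM (median 24.8) in SCs and from 215 to 627 CPM (median 382) in FAPs (log2-FC -3.71 ± 0.35, FDR = 8.4e-05) with no overlap, and DCN, decorin, its close relative, ranged from 718 to 4473 CPM (median 3222) in SCs and from 2151 to 14280 CPM (median 9549) in FAPs (log2-FC -1.52 ± 0.18, FDR = 1.8e-04). Its level also varied between dishes within a type, which was not tested: SCs of the sorted SC cultures held 718 and 1145 CPM against 1704 to 4473 CPM in the other 6 donors, and the FAPs there 2606 and 2151 CPM against 6378 to 14280 CPM. ASPN, asporin (-3.79 ± 0.38), MFAP5, a microfibril protein (-3.23 ± 0.18), and HAS2, a hyaluronan synthase (-3.24 ± 0.40), followed. The exception was EFEMP1, a fibulin (1.23 ± 0.34). The call of EFEMP1 was lost without genotype 1 (0.96) or 9 (1.07).

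Of 25 genes that modify and cross-link collagen 6 were higher in FAPs and none in SCs, and 23 of 25 log2-FCs were below 0. The sorted SC cultures alone had 3 higher in FAPs and 2 in SCs (median log2-FC -0.13), where 4.03% and 4.28% of all genes were. The unsorted cultures alone had 13 and 0 (median -1.15), where 6.96% and 6.52% of all genes were. SC minus FAP was smaller in unsorted than in sorted SC cultures for 6 of the 25, against 1.03% of all genes. P4HA2, a prolyl hydroxylase, ranged from 149.9 to 516 CPM (median 383) in SCs and from 599 to 1698 CPM (median 1153) in FAPs (log2-FC -1.85 ± 0.16, FDR = 7.8e-06). PCOLCE, which enhances procollagen cleavage (-1.73 ± 0.28), LOXL4 (-2.47 ± 0.43) and LOXL2 (-2.08 ± 0.41), both lysyl oxidases, were called too, LOXL2 with a value of 0.10 in the sorted SC cultures alone. Of 27 matrix proteases and inhibitors 9 were higher in FAPs, among them TFPI, the coagulation inhibitor (log2-FC -4.25 ± 0.47, FDR = 6.3e-05), MMP1, a collagenase (log2-FC -4.21 ± 0.47, FDR = 1.6e-05), and TIMP3, an inhibitor of metalloproteases (log2-FC -3.29 ± 0.40, FDR = 4.3e-04), and 2 in SCs, the serine proteases HTRA3 (log2-FC 2.68 ± 0.41, FDR = 8.1e-04) and HTRA1 (log2-FC 1.2 ± 0.11, FDR = 2.8e-06). Of 20 tested matricellular proteins 7 were higher in FAPs, 3 in SCs and 10 not called. DPT, dermatopontin, ranged from 1.96 to 21.1 CPM (median 4.09) in SCs and from 11.5 to 245 CPM (median 93.8) in FAPs (log2-FC -3.96 ± 0.23, FDR = 3.0e-07), and TNC, tenascin C (-2.19 ± 0.43), THBS4 (-3.53 ± 0.36) and CCN3 (-3.17 ± 0.32) were likewise higher in FAPs. SPARCL1, described above, TGFBI (2.21 ± 0.25) and SMOC1 (1.88 ± 0.45) were higher in SCs.

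A list of complement genes, C1q-related proteins and other innate immune genes had the largest share on the FAP side, 11 of 16 tested, with 1 higher in SCs and a median log2-FC of -1.67, but each of the 16 overlapped between the types. CFD, a protease that activates the alternative pathway, ranged from 0.27 to 2.81 CPM (median 1.28) in SCs and from 0 to 85.6 CPM (median 11.4) in FAPs (log2-FC -3.05 ± 0.33, FDR = 1.5e-05). C1QTNF3, a C1q-related secreted protein, was the member higher in SCs (log2-FC 2.97 ± 0.34, FDR = 1.1e-04). CTSS, cathepsin S, which is not on that list, ranged from 0 to 20.4 CPM (median 6.87) in SCs and from 23.0 to 304 CPM (median 122) in FAPs (log2-FC -3.79 ± 0.25, FDR = 1.8e-06) without overlap. The 5 macrophage markers summed to 1.46 to 5.63 CPM in SCs and 0 to 2.84 CPM in FAPs, with PTPRC at 0 in both. One of them, CSF1R, had a UMI in 0.73% to 3.27% of the FAPs of the 6 donors outside the sorted SC cultures and in 0 to 1.05% of SCs. CD68, the only 1 of the 5 to pass the filter, leaned the other way and was not called (log2-FC 0.455). It reached 5.63 CPM in SCs and 1.95 CPM in FAPs. The part of cells with these markers in the results was not tested.

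Chemokines and cytokines went in both directions. Of 19 tested, 6 were higher in FAPs and 2 in SCs. CCL5 ranged from 11.4 to 149 CPM (median 57.6) in SCs and from 126 to 1239 CPM (median 766) in FAPs (log2-FC -3.69 ± 0.36, FDR = 1.1e-04), and CXCL12, which attracts cells with CXCR4, ranged from 3.53 to 44.2 CPM (median 9.92) in SCs and from 11.5 to 276 CPM (median 81.6) in FAPs (log2-FC -3.01 ± 0.30, FDR = 6.1e-05). IL6, a cytokine that acts on SCs, ranged from 1.24 to 33.6 CPM (median 5.54) in SCs and from 36.2 to 113 CPM (median 74.5) in FAPs without overlap (log2-FC -3.58 ± 0.70, FDR = 0.0063). In the other direction CXCL10, a ligand of CXCR3, ranged from 2.81 to 112 CPM (median 53.5) in SCs and from 0.85 to 2.92 CPM (median 1.64) in FAPs (log2-FC 4.83 ± 0.33, FDR = 2.9e-06), and IL15 had log2-FC 1.5 ± 0.29, FDR = 0.0013. The other ligands of CXCR3, named after their values were seen, were on the same side: CXCL11 ranged from 19.7 to 119.7 CPM (median 84.8) in SCs and from 1.43 to 18.4 CPM (median 2.60) in FAPs (log2-FC 4.93 ± 0.31, FDR = 1.8e-06) and CXCL9 ranged from 5.63 to 410.3 CPM (median 56.2) in SCs and from 2.14 to 50.7 CPM (median 2.99) in FAPs (log2-FC 3.96 ± 0.51, FDR = 6.4e-04). The highest FAP value of CXCL9 and CXCL11 was that of genotype 10. In SCs the top 5% of cells held 56.6% of CXCL10 UMIs in the median donor.

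Other genes induced by interferon were listed with antigen presentation genes, and that list, which holds none of the CXCR3 ligands, did not follow them. Of 26 tested, 8 were higher in FAPs and none in SCs, but in the unsorted cultures alone 3 of 27 were higher in FAPs and 1 in SCs (median log2-FC -0.04), where 6.96% and 6.52% of all genes were. ISG15, a ubiquitin-like modifier, ranged from 8.74 to 186 CPM (median 34.7) in SCs and from 139 to 565 CPM (median 372) in FAPs (log2-FC -3.06 ± 0.43, FDR = 0.0011), IFI27 had log2-FC -2.68 ± 0.40, FDR = 0.0015, and IFIT3, which binds viral RNA, log2-FC -4.75 ± 0.33, FDR = 2.2e-07. The related ISG12(B) ranged from 33.8 to 144 CPM (median 87.2) in SCs and from 586 to 1567 CPM (median 1354) in FAPs without overlap (log2-FC -3.88 ± 0.25, FDR = 4.9e-06). It is a paralog of IFI27, so reads the pair shares would be lost or split in counting. The other 18 were not called, among them the effector MX1 (0.36 ± 0.23).

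Mesenchymal transcription factors were among the strongest FAP genes. Of 30 tested stromal lineage factors 8 were higher in FAPs and 4 in SCs. PRRX2, a homeobox factor of mesenchyme, ranged from 2.81 to 27.6 CPM (median 16.1) in SCs and from 62.2 to 444 CPM (median 349.5) in FAPs (log2-FC -4.25 ± 0.20, FDR = 7.6e-08), TWIST1, a bHLH factor, ranged from 1.24 to 16.1 CPM (median 4.47) in SCs and from 18.4 to 117 CPM (median 96.5) in FAPs (log2-FC -4.03 ± 0.33, FDR = 1.5e-05), and EBF2, a factor of adipocyte precursors, had log2-FC -4.47 ± 0.53, FDR = 3.3e-05. None of the 3 overlapped. On the SC side were OSR2, a zinc finger factor (log2-FC 1.56 ± 0.15, FDR = 5.4e-06), and MAF, a leucine zipper factor (log2-FC 1.09 ± 0.23, FDR = 0.0026). PPARG, the adipogenic master regulator, had 319 UMIs in FAPs and 10 in SCs (log2-FC -2.28 ± 0.68, FDR = 0.022) and lay in the FAP direction in 6 of 8 pairs. MAF was not called without genotype 1 (0.98). Without genotype 1 (-2.05), 2 (-2.08) or 9 (-2.34) the call of PPARG was lost.

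Retinoid and steroid enzymes were on the FAP side with 9 of 17 tested, against 1 in SCs (median log2-FC -1.07). CYP26B1, which breaks down retinoic acid (log2-FC -4.03 ± 0.55, FDR = 2.4e-04), and ALDH1A3, which makes it (log2-FC -3.44 ± 0.41, FDR = 2.7e-05), were both higher in FAPs, as was CYP1B1, a steroid and hydrocarbon oxidase (log2-FC -3.45 ± 0.73, FDR = 0.0033). HPGD, which inactivates prostaglandins, had the largest fold among genes that averaged at least 50 CPM in FAPs and were higher there in every pair. It ranged from 5.16 to 28.5 CPM (median 13.1) in SCs and from 87.5 to 1010 CPM (median 211) in FAPs (log2-FC -4.37 ± 0.26, FDR = 1.8e-06). QPCT, a glutaminyl cyclase, ranged from 1.03 to 12.6 CPM (median 5.96) in SCs and from 48.4 to 55.4 CPM (median 52.1) in FAPs (log2-FC -3.72 ± 0.42, FDR = 1.9e-04). HPGD FAP levels spread more than 10-fold between donors and QPCT levels stayed within 48.4 to 55.4 CPM. Of lipid genes FABP5 (log2-FC -1.95 ± 0.27, FDR = 7.0e-04) was higher in FAPs and its relative FABP4 (log2-FC 2.35 ± 0.26, FDR = 1.0e-04) in SCs, each without overlap, and APOD, a lipid carrier, was higher in SCs (log2-FC 1.87 ± 0.24, FDR = 3.1e-04).

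HOX genes, which keep a record of the position a cell came from, differed although all cells came from 1 muscle. Of 18 tested members of a list of HOX genes that also holds PITX1 and TBX4, 7 were higher in SCs and 1 in FAPs, all 8 of them HOX genes. HOXD9 ranged from 2.10 to 5.63 CPM (median 3.67) in SCs and from 0 to 0.36 CPM (median 0.21) in FAPs (log2-FC 3.83 ± 0.39, FDR = 7.1e-06), HOXA5 ranged from 7.84 to 21.4 CPM (median 14.2) in SCs and from 0 to 5.06 CPM (median 3.36) in FAPs (log2-FC 2.04 ± 0.24, FDR = 2.7e-05), and HOXA6 (1.56 ± 0.14) and HOXA10 (1.55 ± 0.20) were also without overlap. HOXC5 was the FAP gene (-2.13 ± 0.41). Its cluster mates HOXC8 (-0.72 ± 0.16) and HOXC6 (-0.16 ± 0.13) were not called and lay below 0. HOXD9 rested on 285 UMIs in SCs and 34 in FAPs.

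Adhesion and cytoskeletal genes exchanged members between the types. CDH1, E-cadherin, ranged from 8.37 to 45 CPM (median 17.8) in SCs and from 0 to 1.94 CPM (median 0.39) in FAPs (log2-FC 5.11 ± 0.25, FDR = 9.5e-09), and CDH11, the mesenchymal cadherin, ranged from 2.12 to 28.1 CPM (median 7.92) in SCs and from 39.1 to 172 CPM (median 116) in FAPs (log2-FC -3.75 ± 0.25, FDR = 1.6e-06), each without overlap. Of the claudins CLDN11 was higher in FAPs (log2-FC -2.91 ± 0.29, FDR = 8.1e-05) and CLDN1 in SCs (log2-FC 3.17 ± 0.41, FDR = 4.9e-04), though the value of CLDN1 between the sorted cultures was -1.41, not called. Of 30 actin and smooth muscle genes 4 were higher in each type, against 4 in SCs and 9 in FAPs in the unsorted cultures alone (6.52% and 6.96% of all genes) and 7 and 0 in the sorted SC cultures alone (4.28% and 4.03%). MYLK, the smooth muscle myosin kinase (log2-FC -3.36 ± 0.22, FDR = 4.3e-07), CNN1, calponin (log2-FC -2.26 ± 0.63, FDR = 0.028), and ACTG2, enteric actin (log2-FC -2.83 ± 0.80, FDR = 0.032), were higher in FAPs, though ACTG2 turned in the sorted SC cultures alone (0.77), while FLNC, the muscle filamin (log2-FC 2.50 ± 0.14, FDR = 5.5e-08), and PDLIM3, a Z-disc protein (log2-FC 4.80 ± 0.62, FDR = 2.7e-04), were higher in SCs. ACTA2, smooth muscle actin, ranged from 256 to 1228 CPM (median 510.2) in SCs and from 205 to 1072 CPM (median 559.6) in FAPs and was not called (-0.00 ± 0.42). ACTG2 and CNN1 are also smooth muscle markers. The 5 markers of that list summed to 21.3 to 103 CPM in SCs and 16.1 to 305 CPM in FAPs, with RGS5 at 0 in both, and their part in these results was not tested. The call of CNN1 was lost without genotype 1 (-1.87), 2 (-2.17), 4 (-2.14) or 9 (-2.0). ACTG2 was not called without genotype 1 (-2.47), 2 (-2.49), 4 (-2.77) or 9 (-2.52).

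Within donors some regulators of the G1 phase were called, but no gene of S phase or mitosis was. None of 40 S phase genes and none of 39 mitosis genes was called in either direction by edgeR; their median log2-FCs were -0.37 and -0.49, and 37 members of each list lay below 0. DESeq2 called none either, and 12 S phase and 9 mitosis genes had an unadjusted p below 0.05, 3 and 5 of them an FDR below 0.05. The sign of these medians depended on the cells compared: between sorted cultures with no use of the labels they were 0.75 and 1.01. There 2 of 43 S phase and 2 of 40 mitosis genes were called higher in SC cultures, below the 6.99% of all genes. In the unsorted cultures alone the medians were -0.58 and -0.86. There 3 of 40 mitosis genes were called higher in FAPs, near the 6.96% of all genes. Per donor the median of the mitosis list ran from -2.95 in genotype 8 to 0.29 in genotype 4. MKI67 ranged from 6.60 to 213 CPM (median 50.5) in SCs and from 24.8 to 277 CPM (median 70.1) in FAPs, and TOP2A had a log2-FC of -0.65 ± 0.39. Of 16 cyclin D and inhibitor genes 4 were higher in SCs and none in FAPs. CCND2, a D cyclin, ranged from 189.7 to 639.7 CPM (median 427) in SCs and from 66.0 to 139 CPM (median 95.7) in FAPs (log2-FC 1.87 ± 0.29, FDR = 0.0015), CDKN1C, the inhibitor p57, ranged from 94.7 to 758 CPM (median 175) in SCs and from 8.60 to 41.7 CPM (median 26.5) in FAPs (log2-FC 3.06 ± 0.50, FDR = 0.0026), CDKN2B, the inhibitor p15, had log2-FC 2.01 ± 0.30, FDR = 1.8e-04, and RB1, the retinoblastoma protein, log2-FC 1.19 ± 0.15, FDR = 3.8e-05. All 4 were without overlap. The top 5% of SCs held 62.9% of CDKN1C UMIs in the median donor (41.5% to 89.1%). The other D cyclins, CCND1 (log2-FC 0.93 ± 0.12, FDR = 7.8e-05) and CCND3 (log2-FC 0.92 ± 0.19, FDR = 0.0036), were above FAPs in 8 of 8 pairs and fell just under the fold threshold. Within cells in G1 alone, an analysis of 6 donors added after the data were seen, CCND2 (1.60) and CDKN1C (2.86) were again called. CCND1 passed the fold threshold without genotype 5 (1.02) and CCND3 without genotype 4 (1.0), and CCND3 was called between sorted cultures with no use of the labels (1.52).

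Lists of basic machinery held few calls or none. Of 78 cytosolic ribosomal protein genes none was called and 74 had a log2-FC above 0 (median 0.16). The fold threshold sets that count, since 43 of them had an unadjusted p below 0.05 and 31 an FDR below 0.05 in edgeR, and DESeq2 called none. Of 55 nuclear genes of oxidative phosphorylation (median 0.14) and of 13 mitochondrially encoded genes (median 0.09) none was called by edgeR or DESeq2, with 22 and 1 at an unadjusted p below 0.05. Of 29 ER folding genes 1 was called, KDELR3, a receptor that returns proteins to the ER, which was higher in FAPs (log2-FC -1.33 ± 0.15, FDR = 3.7e-05), and the median log2-FC was -0.43. Of 32 sterol and fatty acid synthesis genes 1 was called, TM7SF2, a sterol reductase, which was higher in SCs (log2-FC 2.24 ± 0.37, FDR = 0.0021). None of 22 early response genes of tissue handling was called by edgeR or DESeq2, and 8 had an unadjusted p below 0.05. Of 30 glycolysis genes 3 were higher in SCs and 2 in FAPs, counts near the 5.49% and 5.87% of all genes, and the median log2-FC was -0.105. ENO3, the muscle enolase, ranged from 469.8 to 1158 CPM (median 699.7) in SCs and from 22.6 to 182 CPM (median 28.0) in FAPs (log2-FC 4.21 ± 0.35, FDR = 3.8e-05), and ALDOC, an aldolase, was higher in FAPs (log2-FC -2.31 ± 0.24, FDR = 1.6e-05).

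Of 24 genes driven by ATF4 2 were higher in SCs, DDIT4, an inhibitor of mTORC1 (log2-FC 1.3 ± 0.10, FDR = 7.8e-07), and ASNS, asparagine synthetase (log2-FC 1.08 ± 0.13, FDR = 3.9e-05), and 1 in FAPs, NUPR1 (log2-FC -1.03 ± 0.19, FDR = 0.0026). Of 28 redox and metal genes 1 was higher in SCs and 3 in FAPs. The metallothioneins MT1A (log2-FC -2.07 ± 0.38, FDR = 0.0036) and MT2A (log2-FC -1.80 ± 0.24, FDR = 6.5e-04) were higher in FAPs, and they are near copies of each other whose reads can be split. Of 24 tested YAP and TEAD factors, cofactors and targets 5 were higher in SCs, the cofactors WWTR1, VGLL2 and VGLL4 and the targets GADD45A and ANKRD2, a stretch-responsive muscle gene (log2-FC 3.07 ± 0.19, FDR = 7.6e-08), and 2 in FAPs, F3, tissue factor (log2-FC -2.42 ± 0.27, FDR = 8.6e-05), and NT5E, the ecto-nucleotidase CD73 (log2-FC -1.85 ± 0.33, FDR = 0.0020). Without genotype 2 (-0.97), 4 (-0.94), 7 (-0.96) or 8 (-0.96) the call of NUPR1 was lost.

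A contrast that did not use the cell labels asked which genes differ between cultures separated by surface protein. All kept cells of the 3 sorted SC cultures were summed per animal and set against those of the 3 sorted FAP cultures; coating and animals differ between these groups, and they share cells with the paired comparison. Of 12199 genes 2224 (18.2%) were called, 853 (6.99%) higher in SC cultures and 1371 (11.2%) higher in FAP cultures. The log2-FC of MYF5 was 3.53 there, beside 5.39 within donors, that of RAPSN 4.05 beside 5.23, that of CCND2 1.98 beside 1.87, that of PRRX2 -6.09 beside -4.25 and that of BGN -5.28 beside -3.71. These 5, chosen after their values were seen, were called between the cultures, whereas SPARCL1 (1.81), LRP5 (0.60), HTRA1 (0.18), NOTCH2 (0.13) and CLDN1 (-1.41), all higher in SCs within donors, were not. Of the complement and innate immunity list 12 of 17 and of the interferon list 22 of 28 were higher in FAP cultures, against 11 of 16 and 8 of 26 within donors. Of 24 early response genes 13 were higher in the FAP cultures, a list with no call within donors.

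Passage 0, 72 h after isolation and before any sort, was used to ask whether the difference between the types had itself changed. The same 8 donors had pairs at both passages, both types of a passage shared a library, and the change in SC minus FAP was tested as an interaction. Of 11267 genes 656 (5.82%) changed, 264 (2.34%) towards SCs and 392 (3.48%) towards FAPs. Between the passages the 2 sorted SC and 3 sorted FAP donors were sorted and moved from fibronectin to another coating. In these donors passage, sort and coating cannot be told apart. In the unsorted donors alone 633 of 11239 genes changed, 201 towards SCs and 432 towards FAPs. Apart from CCND1, which was not called at passage 2, the single genes described next were taken among those called there. That choice itself favours differences that grew.

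TNNC2, fast troponin C, averaged 0.77 ± 0.53 CPM in SCs at passage 0 and 282 ± 238 CPM at passage 2, against 0.48 ± 0.20 and 5.55 ± 2.21 CPM in FAPs (interaction 4.26 ± 1.37, FDR = 0.041). TNNT1, slow troponin T (5.22 ± 0.70, FDR = 6.4e-05), IL17B, a cytokine (4.36 ± 1.23, FDR = 0.021), and FAM78A (4.22 ± 0.54, FDR = 8.5e-05) were, with ABCG1, a sterol exporter, the 5 largest changes towards SCs among genes called at passage 2. ABCG1 had no UMI in passage 0 SCs and 7.78 ± 3.97 CPM at passage 2, so its fitted change depends on the prior count, and the change was not called without genotype 7 (7.11) or 8 (7.42). CCND2 averaged 99.9 ± 31.3 CPM in SCs and 150.4 ± 47.3 CPM in FAPs at passage 0 and 398 ± 159 and 102 ± 25.9 CPM at passage 2 (2.45 ± 0.32, FDR = 1.1e-04), and at passage 0 alone it was not called. CCND1, higher in FAPs at passage 0, went from 31.6 ± 13.8 and 99.1 ± 26.8 CPM to 569 ± 128 and 296 ± 51.4 CPM (2.67 ± 0.22, FDR = 9.3e-07). SPARCL1 (4.13 ± 0.29, FDR = 2.3e-08), NCAM1, the neural cell adhesion molecule (3.2 ± 0.26, FDR = 1.6e-07), PDGFA (1.69 ± 0.33, FDR = 0.0016) and MYF5 (1.10 ± 0.16, FDR = 7.5e-05) were SC genes at passage 0 and more so at passage 2. The call of TNNC2 was lost without genotype 1 (4.15), 2 (3.77), 4 (4.39), 5 (4.24), 8 (4.08), 9 (3.81) or 10 (4.22). IL17B was not called without genotype 1 (4.08), 2 (4.19) or 8 (3.83).

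Towards FAPs the 5 largest changes were those of SERTM1, a small membrane protein (-5.89 ± 0.55, FDR = 7.4e-07), MMP27, a metalloprotease (-4.56 ± 0.53, FDR = 5.7e-06), CCL5 (-3.96 ± 0.61, FDR = 5.1e-04), FLT1, a VEGF receptor (-3.65 ± 0.81, FDR = 0.0034), and M-SAA3.2, a serum amyloid (-3.50 ± 0.95, FDR = 0.019). SERTM1 averaged 21.9 ± 17.2 CPM in SCs at passage 0 and 0.80 ± 0.90 CPM at passage 2, and stood at 1.09 ± 0.38 and 2.97 ± 1.90 CPM in FAPs. CCL5 was low in both types at passage 0, 5.77 ± 7.30 CPM in SCs and 4.80 ± 2.92 CPM in FAPs, and reached 59.1 ± 44.5 and 689 ± 369 CPM at passage 2. MT1A averaged 4855 ± 1993 CPM in SCs and 2294 ± 1392 CPM in FAPs at passage 0 and 17.6 ± 13.7 and 78.7 ± 46.0 CPM at passage 2 (-3.22 ± 0.39, FDR = 7.0e-05), higher in SCs at passage 0 and in FAPs at passage 2. PRRX2 averaged 79.8 ± 41.9 and 288 ± 146 CPM in FAPs and stood at 15.2 ± 9.38 and 14.2 ± 10.1 CPM in SCs (-1.75 ± 0.25, FDR = 1.2e-04). COL11A1 was an SC gene at both passages with a smaller difference at passage 2 (-2.19 ± 0.55, FDR = 0.012). Of 16 members of the complement and innate immunity list 6 changed towards FAPs and none towards SCs, of 22 contractile genes 11 changed towards SCs and none towards FAPs, and none of 18 members of the HOX list, PITX1 among them, was called by edgeR or DESeq2, with 5 at an unadjusted p below 0.05. Without genotype 1 (-3.29), 2 (-3.48), 7 (-3.35) or 8 (-2.99) the called change of M-SAA3.2 was lost. Its call at passage 2 itself was lost without genotype 1 (-2.42), 2 (-2.55) or 7 (-2.52). The passage 2 call of SERTM1 was lost without genotype 1 (-1.825), 2 (-1.58), 4 (-1.85), 8 (-1.67) or 9 (-1.58).

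**Figure D4:**
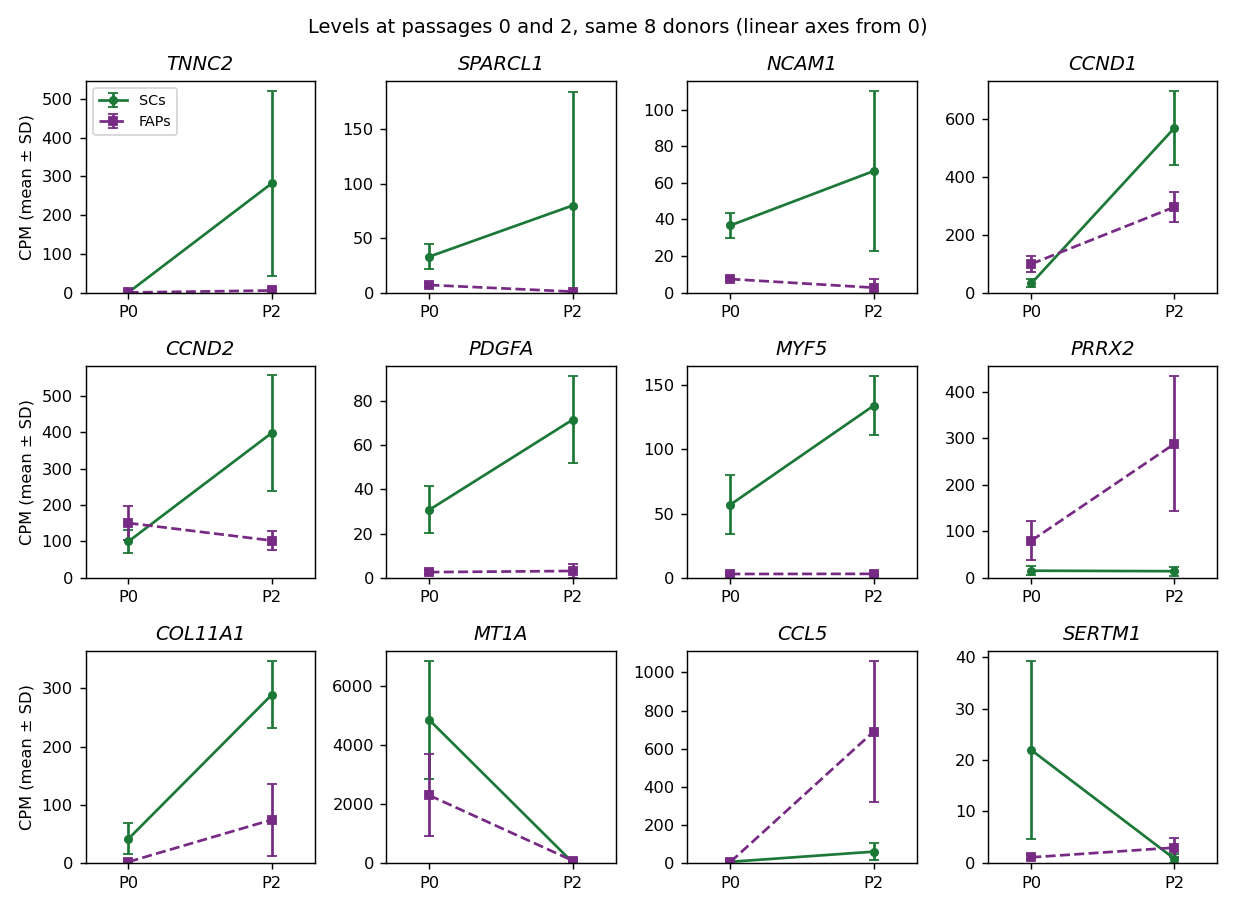
Levels (CPM, mean ± SD over the same 8 donors, linear axes from 0) of 12 genes in SCs (green, solid) and FAPs (purple, dashed) at passages 0 and 2. The lines of CCND2, CCND1 and MT1A cross between the types, and the FAP means of CCL5 and PRRX2 are higher at passage 2 than at passage 0.

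Whether the difference depended on the culture was tested between the 3 unsorted donors and the 2 sorted SC cultures with a pair. Of 12234 genes 212 (1.73%) were called, 86 (0.703%) with SC minus FAP larger in the unsorted dishes and 126 (1.03%) smaller; DESeq2, which scales the libraries otherwise, called 202 larger and 100 smaller. The sorted side rests on FAP pools of 12 and 19 cells, few of them in G1, and the median change of all genes was -0.19, so values stand against that shift. Of 23 chemokines and cytokines 6 had a larger SC minus FAP in the unsorted dishes. CXCL8, a neutrophil chemokine named after its values were seen, changed by 6.33 ± 0.66, CXCL2 by 4.12 ± 0.41 and IL6 by 4.18 ± 0.60. In SCs of the unsorted dishes IL6 stood at 14.1, 4.39 and 33.6 CPM, and in SCs of the sorted SC dishes at 1.24 and 1.37 CPM. ACTG2 changed by -5.93 ± 0.34 and CNN1 by -3.52 ± 0.60. Between calves and adults 57 of 11842 genes (0.481%) were called, 39 with a larger SC minus FAP in calves (0.329%) and 18 with a smaller one, while DESeq2 called 61 and 59. Among the 39 were 8 of 40 mitosis genes and 4 of 43 S phase genes, and no member of either list was among the 18. In the adults with a pair, 88.8%, 100% and 91.9% of SCs were in G1 (genotypes 1, 8 and 9), against 38.0% to 78.7% in calves. The 100% rests on the 18 SCs of genotype 8, and the part of phase in these calls was not tested. Both sorted SC pairs were calves, so age and culture are partly confounded. The 3 unsorted donors were female and genotype 10 of the sorted SC pairs was male, so sex and culture are partly confounded too.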

How the data were processed

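Single-cell libraries (Chromium 3′) were aligned and counted by the authors with Cell Ranger 6.0.1 on ARS-UCD1.2, as named in the submitters' processing notes; unnormalised UMI counts of each barcode were deposited. Animals were assigned by the authors with demuxlet, which marked 2393 of 12210 passage 2 barcodes (19.6%) as doublets; it detects only doublets of different animals, and no other caller was run. Cell type, phase and percent mitochondrial UMIs were taken from the deposited cell table (8966 kept cells), and 20 other columns of the cell tables were not used. Of the kept barcodes 26 were shared by the passage 0 and passage 2 libraries.

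Counts were summed per animal and type, low genes were removed with edgeR's filterByExpr, and TMM scaling and the quasi-likelihood test (edgeR 4.0.16, R 4.3.3) were applied with animal as a block. A call needed an FDR below 0.05 and an absolute log2-FC above 1, SE was the absolute log2-FC divided by the square root of F, and differences per donor used a prior count of 2. Interactions with passage, culture and age class were fitted on the same pseudobulks. Alternatives were DESeq2 1.42.0, its size factors, no filter, no block, at least 30 cells, thinning, single cultures, G1 cells and leaving out each donor. Scripts were tested on simulated data. Python 3.11.15 was used for summaries. Named genes were, first, the 12 called genes of largest fold in each direction among those with a symbol. These also had to differ the same way in every pair and average at least 50 CPM in the higher type. To them were added up to 4 called members per list and direction, markers, and the 5 largest passage interactions in each direction. The members, lists and genes were chosen with earlier results of these data known. Genes are named by the files' symbols, which 16828 of 21880 features have; 68 symbols stand for several genes. Passage and library cannot be told apart, nor, in the sorted donors, passage, sort and coating. A few genes are not reported here.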

Additional observations from a re-analysis of the deposited data

Results flagged for a closer look

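A single donor lay far from the other 7, by Dixon's criterion at the 95% level, in 22 of 172 sets of 8 donor values; chance alone gives about 1 in 20. Each value below is a log2 difference of SC minus FAP in 1 donor, and no cause was tested. Genotype 8 was the lowest of 8 in ALDOC (-7.85), COL16A1 (-8.40), CTSS (-11.05), CXCL10 (0.77), HEYL (-1.61), LAMA3 (-6.07), LAMB3 (-3.49), MT1A (-8.62) and PRRX2 (-7.23). Genotype 10 was the lowest of 8 in ASB5 (3.11), ENO3 (1.91), KCNN3 (-0.41) and RAPSN (1.62). Genotype 10 was the highest of 8 in LFNG (6.50). Genotype 5 was the lowest of 8 in DKK3 (-3.41), F3 (-4.40) and MT2A (-3.48). Genotype 5 was the highest of 8 in MAF (2.81) and MYF5 (6.55). Genotype 4 was the lowest of 8 in CAV3 (2.80). Genotype 7 was the highest of 8 in ANKRD2 (4.15). In genotype 8, whose 18 SCs gave the smallest SC pseudobulk, a low difference can rest on 0 UMIs in SCs. The median mitochondrial share of FAPs was highest in genotype 10, at 3.56%, where it rests on 12 cells.

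For the genes named in the report, the change of SC minus FAP between groups was tested as an interaction in edgeR, and these are log2 changes past both thresholds. From passage 0 to passage 2 SC minus FAP was larger for ABCG1 (7.60), ANKRD2 (1.38), ASNS (1.14), BMP7 (2.87), CCND1 (2.67), CCND2 (2.45), COL15A1 (1.23), COL27A1 (2.88) and CXCL11 (1.98). Likewise, SC minus FAP was larger for DKK2 (3.66), EFNB2 (2.06), ENO3 (1.41), FABP4 (1.15), FAM78A (4.22), IL17B (4.36), ITIH5 (1.74), JPH1 (2.29) and MEGF10 (2.33). Further, SC minus FAP was larger for MYF5 (1.10), NCAM1 (3.2), OSR2 (1.62), PDGFA (1.69), ROR2 (1.69), SGCA (2.13), SPARCL1 (4.13), TGFBI (3.58) and TNNC2 (4.26). Last, SC minus FAP was larger for TNNT1 (5.22) and XIRP1 (2.53). From passage 0 to passage 2 SC minus FAP was smaller for ALDOC (-1.59), APOD (-1.2), BAMBI (-1.84), CCL5 (-3.96), CCN3 (-1.44), COL11A1 (-2.19), COL6A3 (-1.47), CTSS (-1.55) and CYP1B1 (-3.04). Likewise, SC minus FAP was smaller for FLT1 (-3.65), IFIT3 (-2.72), IGFBP7 (-1.61), ISG12(B) (-1.11), ITGA5 (-1.21), LAMA3 (-2.33), M-SAA3.2 (-3.50), MAF (-1.94) and MMP1 (-2.15). Further, SC minus FAP was smaller for MMP27 (-4.56), MT1A (-3.22), MT2A (-1.95), MYLK (-2.08), NUPR1 (-1.83), PRRX2 (-1.75), SERTM1 (-5.89) and TFPI (-1.98). In unsorted against sorted SC cultures SC minus FAP was larger for BGN (1.29), CXCL2 (4.12), CXCL8 (6.33), IL6 (4.18), ISG15 (2.64), NT5E (1.71) and TIMP3 (2.12). In unsorted against sorted SC cultures SC minus FAP was smaller for ACTG2 (-5.93), CNN1 (-3.52), EYA2 (-4.97), FABP4 (-2.73) and LOXL2 (-3.17). In calves against adults SC minus FAP was smaller for CLDN11 (-1.48). The sorted SC side of the culture contrast rests on FAP pools of 12 and 19 cells.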

How the results depend on the processing

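Replicate numbers are genotypes, so SCs and FAPs of 1 animal share a number and the pairing comes from the animal. Without the replicate block 1301 genes were called in place of 1236, and among the genes named EFEMP1, M-SAA3.2, NID1, NUPR1 and SERTM1 lost their calls. The total was 2013 with no filter on low counts, 270 after thinning to the smallest pseudobulk and 2224 between sorted cultures with no use of the labels. Of the 597 SC and 639 FAP calls, 566 and 633 stood with no filter, 94 and 143 after thinning (103 and 168 tested), and 378 (63.3%) and 556 (87.0%) between sorted cultures, which share cells with the pairs; 2 SC calls were opposite there. DESeq2 gave 1284 and leaving out 1 donor each 1152 to 1297. The 656 passage interactions became 135 after thinning and 548 to 695 with 1 donor left out. DESeq2 gave 120 in place of 57 age interactions and 302 in place of 212 culture interactions. Sorted cultures gave 1673 to 2605 calls with 1 culture left out, beside 2224. Means over cells in place of medians gave -6455 UMIs, -492 genes and 0.171 points of mitochondrial share, each with an adjusted p of 0.031 by an exact sign-flip permutation test. In the sorted SC cultures alone ACTA2 (1.16), ACTG2 (0.77), COL27A1 (-0.57), EYA2 (0.74), HEY1 (1.04), LOXL2 (0.10) and VEGFA (0.31) turned, and between sorted cultures CLDN1 (-1.41) did. Over the 164 genes named, 2793 of 2986 recomputed values kept direction and side of the threshold, 168 kept the direction but not the call, 17 gained a call and 8 turned. Apart from fewer reads under thinning, the cause was not tested. The analyses of G1 cells (1191 calls) and of sorted FAP cultures alone (962) were chosen after seeing the data. Depth limits low genes: the smallest pseudobulks held 340296 UMIs of SCs and 374857 of FAPs.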
